A study of Homo sapiens with 9 samples.

Results

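The genes examined were CREB1, CREM, CREB5 and ATF3, which encode basic leucine zipper (bZIP) transcription factors, and the measurement was where their chromatin was called accessible in Jurkat cells. Merged FAIRE regions were counted as belonging to a gene when they overlapped its gene body or the 50 kb on either side of its transcription start site (TSS) in the GENCODE annotation of GRCh37 (hg19). This gave 22 regions of 40703 in all, of which 12 lay at CREB5, 4 at CREM, 4 at ATF3 and 2 at CREB1. Formaldehyde-assisted isolation of regulatory elements (FAIRE) recovers the DNA that is poorly cross-linked to nucleosomes, so a peak marks a stretch of open chromatin.

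CREB1 and CREM bind the cAMP response element (CRE), a short palindrome, as dimers. Phosphorylation by protein kinase A, by calcium/calmodulin-dependent kinases or by the MSK and RSK kinases lets CREB1 recruit the co-activators CREBBP and EP300, and the CRTC proteins bind it separately after calcium or cAMP signals. CREB5 is a relative closer to ATF2, and ATF3 is a stress- and mitogen-inducible member of the family that can dimerise with JUN proteins and is often a repressor on its own. In T cells, CREB1 and CREM isoforms are known regulators of cytokine genes including IL2.

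Jurkat is an established human T cell leukaemia line, grown here as clone E6-1. The study design has 9 samples: non-stimulated cells (NS), cells stimulated with 24 ng/mL PMA and 1 µM calcium ionophore for 4 h by the labels (ST), stimulated cells that were washed and rested for 1 day (SW), and rested cells stimulated again for 2 h (RS), each after DMSO vehicle or after 15 µM rottlerin for 1 h, plus a total input. PMA activates protein kinase C, the ionophore raises intracellular calcium, and rottlerin was used as a protein kinase C inhibitor. The methods of the study give a shorter first stimulation than the labels. Every label had 1 library of 1 clone, so that no difference below has a replicate check and no test was possible.

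Peak lists labelled NS DMSO, SW DMSO, NS rottlerin and SW rottlerin are used, and 5 samples were not analysed here. Joining the 4 lists gave 40731 regions before 28 on other contigs were left out. The study's methods describe peak calling on its DMSO libraries alone, one per state, with the same merged total. The labels of the lists may therefore not name the cells in them, and each is called below only by its label, with no direction read for stimulus withdrawal or rottlerin. The lists held 18977, 20132, 23835 and 30409 peaks in the order above, with median fold enrichments of 4.05, 4.03, 4.08 and 4.03. Read depth is unknown from the lists, so that a region without a peak was not called there rather than closed, and in a bulk library fewer cells with an open site cannot be told apart from a less open site in every cell. Of 7 genes that mark Jurkat T cells, CD3E and LCK among them, 7 had a peak within 1 kb of the TSS in at least 1 list, and 3 had one in all 4 lists. MS4A1, CD14 and ALB, which mark other cells, had no such peak in any list.

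Peak heights are given as column 7 of the lists, the fold enrichment over total input averaged along the peak, and are written in the order NS DMSO, SW DMSO, NS rottlerin and SW rottlerin. Each region is named by the distance of its mid-point from the gene's annotated TSS, and all 4 genes lie on the forward strand. In the printed sequences, which are the forward strand of GRCh37 from 5′ to 3′, capitals mark the CRE core TGACG, on either strand (CGTCA is the complement), and the AP1 site TGANTCA, which is the site of FOS and JUN dimers. A full CRE, TGACGTCA, holds the core once on each strand, so that a full CRE counts as 2 overlapping cores.

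**Figure D1:**
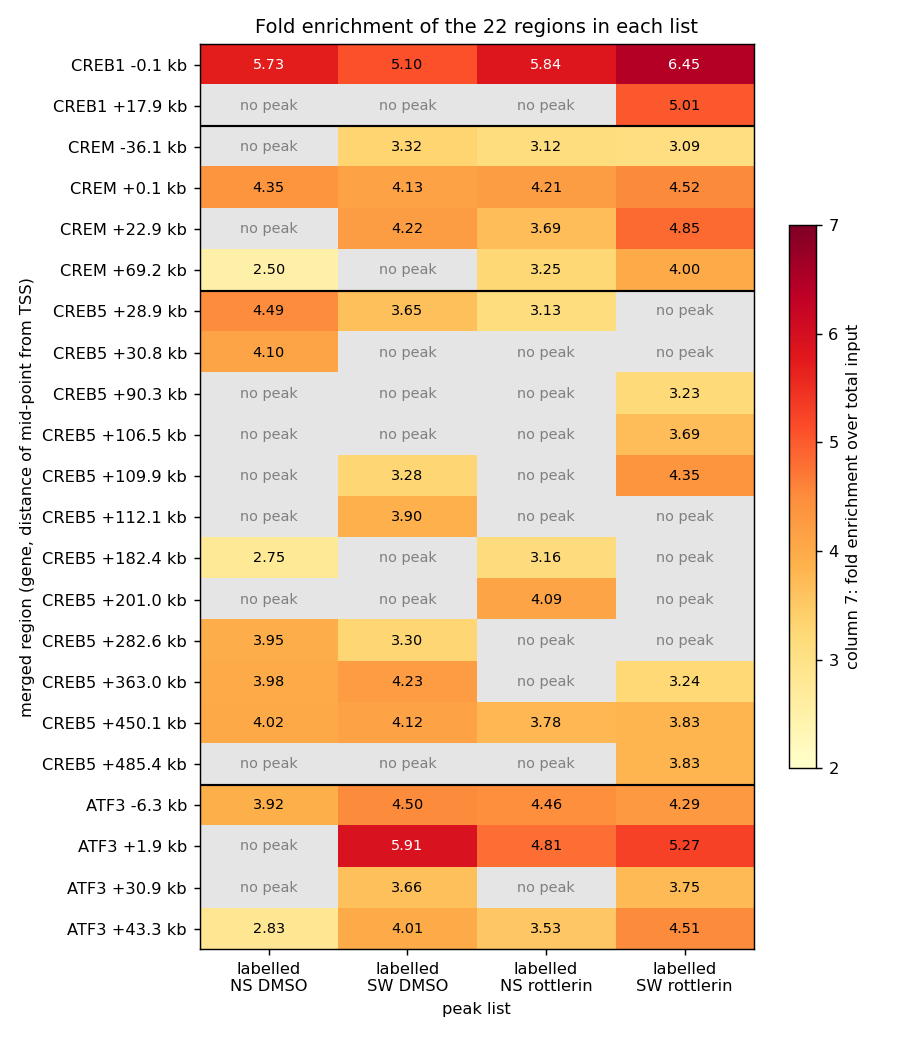
Fold enrichment over total input (column 7, colour and printed value) of each of the 22 merged regions (rows, named by gene and distance from the TSS) in each of the 4 peak lists (columns, by label); grey cells had no peak. The CREB1 start region stands at 5.10 to 6.45, highest in 3 of the 4 lists, and the ATF3 region 1.9 kb downstream of the TSS has no NS DMSO value and 5.91, 4.81 and 5.27 in the others.

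Of the 4 ATF3 regions, 2 had a peak in the NS DMSO list, 4 in the SW DMSO list, 3 in the NS rottlerin list and 4 in the SW rottlerin list. Of all merged regions, 46.5%, 49.3%, 58.4% and 74.5% had a peak in these lists, in the same order. The 2 without an NS DMSO peak stand beside 53.5% of all merged regions. The gene (ENSG00000162772, chr1:212738676-212794119) has alternative promoters, and its annotation holds 10 transcripts. Summed over its regions, fold enrichment was 6.76, 18.1, 12.8 and 17.8 in the 4 lists. A region not called in a list counted as 0, so a sum depends on the number of regions called. With 1 library a label, the spread behind these sums is unknown.

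The first ATF3 region lay 6.3 kb upstream of the TSS (chr1:212732281-212732568). Its mid-point was in an annotated exon and 280 bp upstream of a start of the long non-coding RNA gene ENSG00000288007. The region's fold enrichment was 3.92, 4.50, 4.46 and 4.29, so it was called in all 4 lists at similar heights. It is shown because it holds a full CRE, a further CRE core and an AP1 site within a short stretch.
ATF3, 6.3 kb upstream, chr1:212732281-212732568: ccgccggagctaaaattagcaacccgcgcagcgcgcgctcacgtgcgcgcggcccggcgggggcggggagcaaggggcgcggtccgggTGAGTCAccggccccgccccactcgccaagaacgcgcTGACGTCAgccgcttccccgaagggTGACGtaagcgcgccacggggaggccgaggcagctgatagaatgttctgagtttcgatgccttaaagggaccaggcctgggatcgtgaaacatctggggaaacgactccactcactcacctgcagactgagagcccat

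The second ATF3 region, in an intron 1.9 kb downstream of the TSS, had no peak in the NS DMSO list and fold enrichments of 5.91, 4.81 and 5.27 in the other lists. These values were high for their lists, at or above 92.7%, 73.6% and 82.9% of all their peaks. The nearest NS DMSO peak was 7.87 kb away.

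The third ATF3 region, in an intron 30.9 kb downstream (chr1:212769246-212770000), was called in the SW DMSO list at 3.66 and in the SW rottlerin list at 3.75, and in neither list labelled NS. It holds 2 AP1 sites and 1 CRE core. Its heights were below the list medians.

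The fourth ATF3 region, 43.3 kb downstream (chr1:212781741-212782119), contained 2 ATF3 transcript starts. It was called in all 4 lists, at 2.83, 4.01, 3.53 and 4.51. The NS DMSO value was among the lowest of its list, where 2.73% of peaks were at or below it, and the other lists were 1.42, 1.25 and 1.59 times as high. ATF3 is known to act on an ATF/CRE element of its own promoter, and the stretch is shown because a CRE core lies 4 bp downstream of an annotated transcript start.
ATF3, 43.3 kb downstream, chr1:212781780-212782079: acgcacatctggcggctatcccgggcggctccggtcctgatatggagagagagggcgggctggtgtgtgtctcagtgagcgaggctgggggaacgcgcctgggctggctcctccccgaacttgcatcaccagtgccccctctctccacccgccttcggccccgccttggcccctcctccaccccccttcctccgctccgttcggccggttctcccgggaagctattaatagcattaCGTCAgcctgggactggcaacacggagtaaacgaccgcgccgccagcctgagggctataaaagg

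CREM, the cAMP response element modulator, makes activators and repressors, and an internal promoter makes the short inducible repressor ICER, which is known to be switched on through CRE sites and to repress its own promoter. The gene (ENSG00000095794, chr10:35415719-35501886) carries 48 annotated transcripts. Its 4 regions had a peak in 2, 3, 4 and 4 of 4 cases in the 4 lists, beside 46.5%, 49.3%, 58.4% and 74.5% of all merged regions. The summed fold enrichment was 6.85, 11.7, 14.3 and 16.5, with a region not called counted as 0. These sums include a region 36.1 kb upstream that lies at a start of CUL2.

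The CREM region at the 5′ end of the gene (chr10:35415537-35416199) contained 18 transcript starts and was called in all 4 lists, at 4.35, 4.13, 4.21 and 4.52. These heights were nearly equal, with ratios to the NS DMSO list of 0.948, 0.967 and 1.04. It holds 2 CRE cores and no full CRE.

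The region 69.2 kb inside CREM (chr10:35484678-35485244) contained 5 internal transcript starts. Its fold enrichment was 2.50 in the NS DMSO list, 3.25 in the NS rottlerin list and 4.00 in the SW rottlerin list, with no peak in the SW DMSO list. The NS DMSO value was near the floor of that list, where 0.306% of peaks were at or below it, and the NS rottlerin and SW rottlerin values were 1.30 and 1.60 times as high. A full CRE lay in this region 13 bp upstream of an annotated internal start, with another CRE core 35 bp downstream of a second such start, and 30 bases around the CRE are shown.
CREM, internal starts, chr10:35484769-35484798: gagctgcacatTGACGTCAgctccgagtca

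The other 2 CREM regions had peaks in every list except NS DMSO. The intronic region 22.9 kb downstream of the TSS (chr10:35438476-35438825) stood at 4.22, 3.69 and 4.85, with the nearest NS DMSO peak 22.3 kb away and no CRE core or AP1 site in it. The region 36.1 kb upstream (chr10:35379265-35380018) stood at 3.32, 3.12 and 3.09, and its mid-point was 72 bp from a start of CUL2, which encodes a cullin scaffold of ubiquitin ligases. The position of that region is thus the start of the neighbouring gene rather than of CREM.

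CREB5 had the most regions and the most scattered calls. The gene (ENSG00000146592, chr7:28338940-28865511) spans 527 kb, and its 12 regions came to 2.08 per 100 kb of window, beside a median of 2.12 over 20163 protein-coding genes. All 12 lay inside the gene body, from 28.9 kb to 485.4 kb downstream of the annotated TSS, and none at that TSS. The lists held a peak at 6, 6, 4 and 6 of the 12, beside 46.5%, 49.3%, 58.4% and 74.5% of all merged regions. The summed fold enrichment was 23.3, 22.5, 14.2 and 22.2, with a region not called counted as 0. The NS DMSO sum was the highest of the 4 at CREB5 and the lowest at CREM and ATF3. Each sum depends on the number of regions called.

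The CREB5 region 109.9 kb downstream (chr7:28448610-28449019) contained 4 internal CREB5 transcript starts. It had no NS DMSO or NS rottlerin peak, a fold enrichment of 3.28 in the SW DMSO list and 4.35 in the SW rottlerin list, and no NS DMSO peak within 72.2 kb. It is shown because it holds a full CRE, 27 bp upstream of an internal start, and an AP1 site.
CREB5, 109.9 kb downstream, chr7:28448665-28448964: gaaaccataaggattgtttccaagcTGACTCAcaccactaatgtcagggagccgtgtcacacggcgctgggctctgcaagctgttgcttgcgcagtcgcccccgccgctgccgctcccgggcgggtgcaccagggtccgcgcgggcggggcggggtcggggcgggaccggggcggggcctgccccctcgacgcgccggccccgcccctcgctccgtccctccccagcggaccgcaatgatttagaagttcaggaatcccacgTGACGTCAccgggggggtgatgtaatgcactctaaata

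Around these starts the calls were isolated. The regions 90.3 kb and 106.5 kb downstream were called in the SW rottlerin list alone, at 3.23 and 3.69, and the region 112.1 kb downstream in the SW DMSO list alone, at 3.90. The last of these holds an AP1 site. No NS DMSO or NS rottlerin peak fell between 90.3 kb and 112.1 kb.

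Nearer the 5′ end of CREB5, regions with an NS DMSO peak were found. The intronic region 28.9 kb downstream (chr7:28367675-28368097) had fold enrichments of 4.49, 3.65 and 3.13 in the NS DMSO, SW DMSO and NS rottlerin lists and no SW rottlerin peak, although that list was the longest. The region 30.8 kb downstream (chr7:28369622-28369909) was called in the NS DMSO list alone, at 4.10, and holds an AP1 site. It was the only 1 of the 22 regions called in that list alone.

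Only the CREB5 region 450.1 kb downstream (chr7:28788918-28789143) was called in all 4 lists. Its mid-point lies in an annotated exon, and it stood at 4.02, 4.12, 3.78 and 3.83, so that its heights differed little between lists. Its sequence, shown as that of the only region of the locus called in every list, holds 1 AP1 site.
CREB5, 450.1 kb downstream, chr7:28788918-28789143: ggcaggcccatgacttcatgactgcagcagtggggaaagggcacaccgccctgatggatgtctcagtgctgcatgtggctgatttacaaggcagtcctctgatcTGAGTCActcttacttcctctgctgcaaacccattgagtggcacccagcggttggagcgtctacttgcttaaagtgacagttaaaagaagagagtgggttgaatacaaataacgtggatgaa

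The remaining 5 CREB5 regions were intronic and called in 1 to 3 lists. The region 182.4 kb downstream stood at 2.75 in the NS DMSO list and 3.16 in the NS rottlerin list, and that 282.6 kb downstream at 3.95 in the NS DMSO list and 3.30 in the SW DMSO list. The region 363.0 kb downstream stood at 3.98, 4.23 and 3.24 in the NS DMSO, SW DMSO and SW rottlerin lists. Those 201.0 kb and 485.4 kb downstream were called once each, at 4.09 in the NS rottlerin list and 3.83 in the SW rottlerin list. None of these was within 1 kb of a transcript start.

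**Figure D2:**
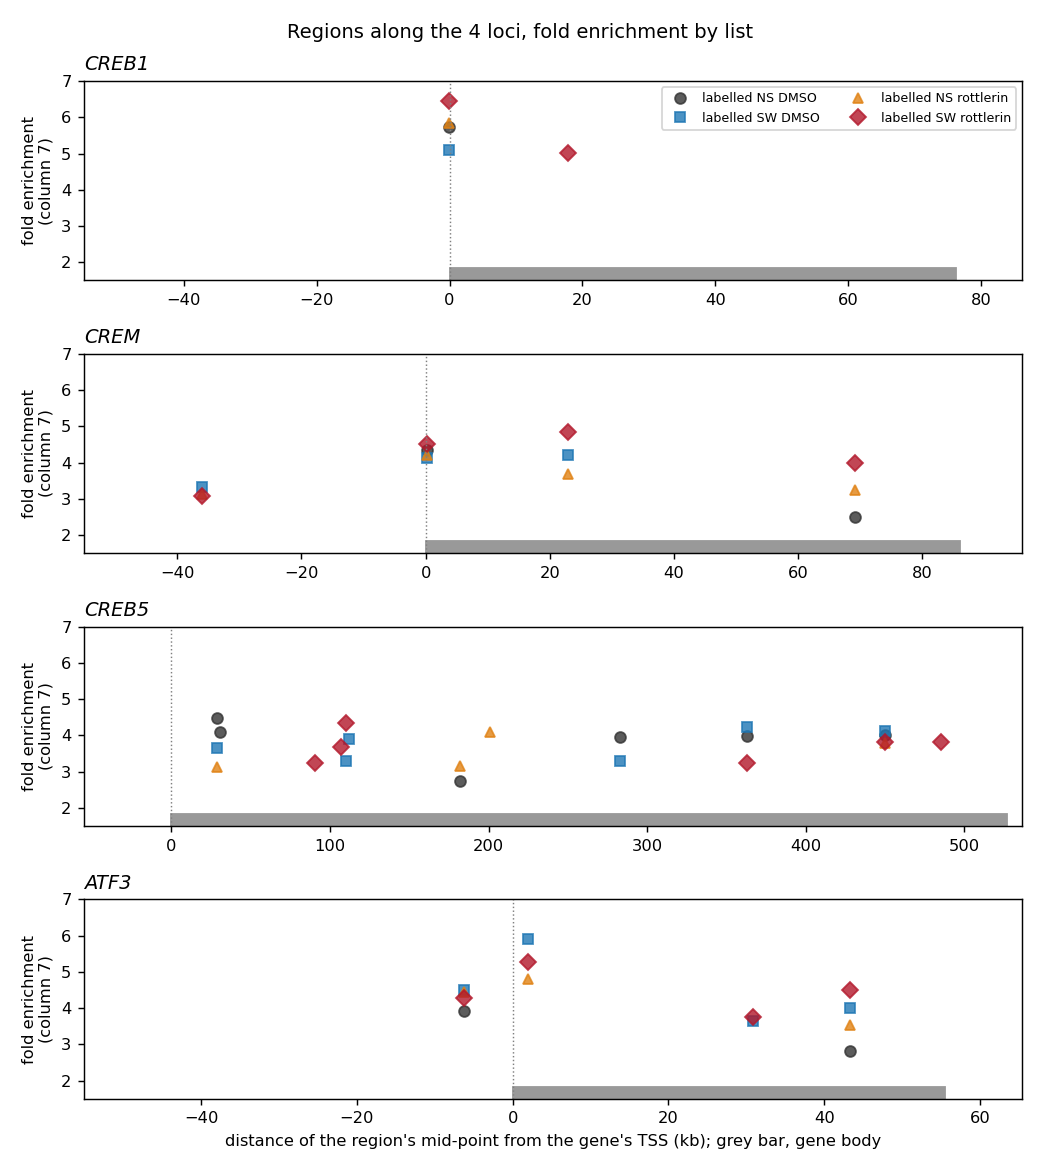
Fold enrichment over total input (column 7, y axis) of each region against the distance of its mid-point from the gene's TSS (x axis, kb), 1 panel per gene and 1 point per list with a peak; the grey bar is the gene body. ATF3, CREM and CREB5 have their lowest points in the NS DMSO list (2.83, 2.50 and 2.75). CREB5 also has NS DMSO points of 4.49 and 4.10, at 28.9 kb and 30.8 kb, and none between 90.3 kb and 112.1 kb.

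CREB1, the constitutive founding member of the family, had 2 regions. The first covered the 5′ end of the gene (ENSG00000118260, chr2:208394461-208470712) at chr2:208393813-208394852 and contained 7 CREB1 transcript starts. Its fold enrichment was 5.73, 5.10, 5.84 and 6.45, the highest of the 22 regions in every list except SW DMSO, where the ATF3 region at 1.9 kb was higher. It holds 4 CRE cores along its 1040 bp and no full CRE. The second CREB1 region, in an intron 17.9 kb downstream of the TSS (chr2:208412126-208412536), was called in the SW rottlerin list alone, at 5.01, at or above 78.3% of that list's peaks.

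Over the 22 regions, 11 (50%, 95% Wilson interval 30.7 to 69.3, counting error only) had no peak in the NS DMSO list, and this was 1 of 2 at CREB1, 2 of 4 at CREM, 6 of 12 at CREB5 and 2 of 4 at ATF3. Over all merged regions the share was 53.5%, and over those in the same windows of protein-coding genes 51.7%, so the members' share lay near the background. A peak in all 4 lists was found for 5 of 22 regions (22.7%, interval 10.1 to 43.4) against 26.6% of all regions. A peak in 1 list was found for 7 of 22 regions against 38.8% of all regions. A peak in the SW rottlerin list alone was found for 4 of 22 (18.2%) against 18.2% of all regions. For the NS DMSO list alone it was 1 of 22 (4.55%) against 7.83%. The pattern of ATF3 at 1.9 kb and CREM at 22.9 kb and 36.1 kb, with a peak in all lists but NS DMSO, was that of 3 of 22 regions (interval 4.75% to 33.3%) against 7.08% of all regions, a background inside the interval.

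**Figure D3:**
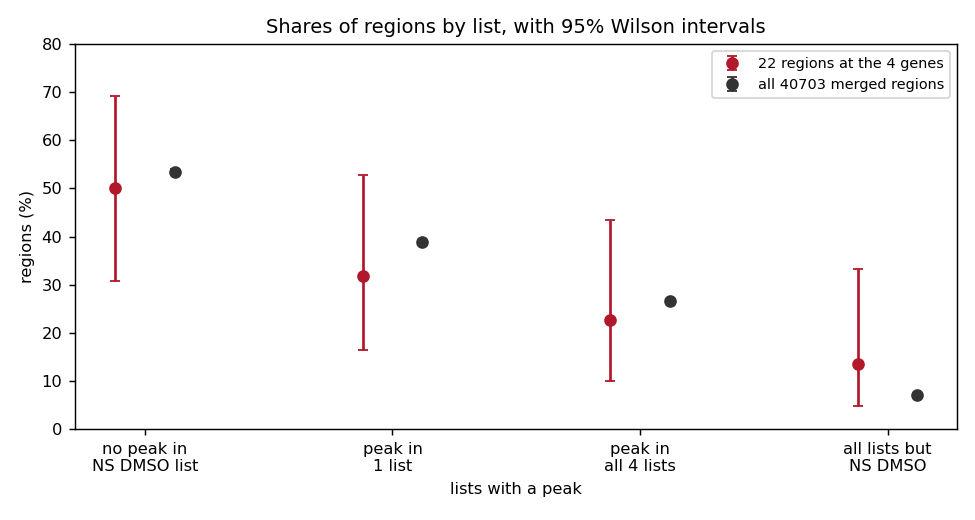
Share of regions (y axis, percent) with each pattern of calls (x axis) among the 22 regions at CREB1, CREM, CREB5 and ATF3 (red) and among all merged regions (black); bars are 95% Wilson intervals for counting error. Each interval of the 22 regions covers the share of all regions, for example 30.7 to 69.3 around 50% against 53.5%.

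Position went with the pattern, as in the whole data set. Of the 7 regions within 1 kb of a transcript start of any gene, 4 were called in every list and 2 lacked an NS DMSO peak, beside 51.3% and 35.7% of all regions so placed. Of the 15 farther away, 1 was called in every list and 9 lacked an NS DMSO peak, beside 15% and 61.9%. By mid-point, 18 of the 22 regions were intronic, 2 exonic and 2 in a 5′ untranslated exon, while 55.8% of all regions were intronic. The choice of regions in gene bodies favours introns, and whether the difference goes beyond that choice was not tested. The intron class was also assigned before the promoter class. The regions at the CREB1 start, the CUL2 start and the internal starts of ATF3 (43.3 kb) and CREB5 (109.9 kb) therefore counted as intronic.

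For the 5 regions called in all 4 lists, the median ratio of fold enrichment to the NS DMSO list was 1.02 in the SW DMSO list, 1.02 in the NS rottlerin list and 1.09 in the SW rottlerin list. The medians over the 10841 such regions in all were 0.985, 1.04 and 1.08. The first of these medians at the genes fell below 1 in 3 alternative settings and the second in 2, so neither has a stable direction. A ratio of at least 1.5 was reached by 0 of 5 in the SW DMSO list, 0 of 5 in the NS rottlerin list and 1 of 5 in the SW rottlerin list, the ATF3 region at 43.3 kb, where 1.69%, 3.16% and 5.06% of all such regions reached it.

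The full CRE was searched on both strands over the whole of each region and was found in 3 of 22, at ATF3, CREM and CREB5, against 1.41% of all merged regions. All 3 had their mid-point within 1 kb of a transcript start. The 22 regions were wider, with a median of 366 bp against 294 bp. Over whole regions the AP1 site was found in 8 of 22 (36.4%) against 22.1%, in 5 CREB5 and 3 ATF3 regions and in 0 at CREB1 or CREM. Windows of 300 bp around each mid-point gave every region the same length, but took in flanking sequence at the 9 of 22 regions that were narrower. In these windows the full CRE was found in 2 of 22 against 0.985%, the CRE core in 7 of 22 (31.8%) against 17.5%, and the AP1 site in 8 of 22 against 17.9%. Among all regions within 1 kb of a transcript start, the shares were 2.39%, 29.3% and 9.05% in the same order. Among all regions without an NS DMSO peak they were 0.624%, 14.4% and 25.8%, so these backgrounds vary with position and pattern of calls. The AP1 site counted for the CREB5 region 106.5 kb downstream lay outside the called region, and those of the region 282.6 kb downstream lay outside its window. A match is a description of letters and does not show that a factor was bound.

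Genes of the same pathway were read in the same way. The 18 CREB and ATF relatives had 89 regions, of which 38 (42.7%, interval 32.9 to 53.1) had no NS DMSO peak. The 5 co-activators had 9 of 25 (36%, interval 20.2 to 55.5), the 13 kinases and kinase subunits 27 of 58 (46.6%, interval 34.3 to 59.2) and the 7 enzymes that make or degrade cAMP 24 of 39 (61.5%, interval 45.9 to 75.1). All 4 intervals covered the 51.7% of regions in windows of protein-coding genes, and that of the relatives ended just under the 53.5% of all regions.

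**Figure D4:**
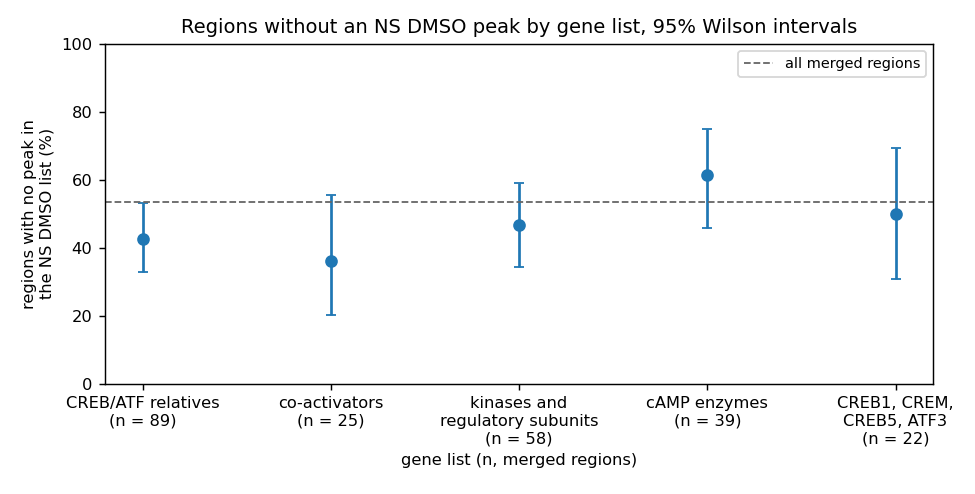
Share of merged regions with no peak in the NS DMSO list (y axis, percent) for each gene list (x axis, with the number of regions); points are shares, bars 95% Wilson intervals for counting error, and the dashed line is the share of all merged regions. The cAMP enzymes are highest at 61.5% and the co-activators lowest at 36%, against 53.5% of all regions.

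Within 1 kb of the gene's TSS, 27 of these genes had a region, and 8 of the 30 regions so placed, at 8 genes, had no NS DMSO peak (26.7%), beside 35.7% of all regions within 1 kb of any transcript start. Among the relatives these were BATF, an AP1 partner of activated T cells, at 3.18 and 3.69 in the lists labelled NS rottlerin and SW rottlerin; CREBL2 at 3.26, 3.12 and 3.38 in the lists other than NS DMSO; and CREB3L3 at 3.95 and ATF4, the effector of the integrated stress response, at 3.67 in the SW rottlerin list alone. ATF4 had another region within 1 kb of its TSS that was called in all 4 lists. CRTC1, a calcium- and cAMP-regulated co-activator, stood at 3.36 in the NS rottlerin list and 2.96 in the SW rottlerin list. Among the kinases, PRKAR1A, a regulatory subunit of protein kinase A, stood at 3.33 in the SW DMSO list and 3.65 in the SW rottlerin list, and CAMK4, a calcium-dependent CREB kinase, at 3.28 in the SW rottlerin list alone, beside another region near its TSS that had an NS DMSO peak. ADCY9, an adenylyl cyclase, stood at 3.46 in that list alone.

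The protein-coding genes whose summed fold enrichments lay closest to each member's over the 4 lists, by Euclidean distance of log2(sum + 1), were VSIG10, PWWP2A and HPR for CREB1 (distances 0.135, 0.143 and 0.173), and SPI1, DTHD1 and METTL8 for CREM (0.11, 0.156 and 0.174). For CREB5 they were NEK8, RAB34 and RPL23A, which share their regions and so have the same distance, 0.155. For ATF3 they were KLRF1, RNF223 and AL136376.1, at 0.208, 0.262 and 0.284. Likeness over 4 lists is a description only.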

How the data were processed

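FAIRE DNA and total input of Jurkat cells were sequenced by the authors, with adapters removed by CutAdapt, Bowtie2 mapping to hg19 and Picard removal of duplicates, and broad peaks were called by MACS2 with the total input as control; tool versions are not given in the sources used here. The deposited lists hold the authors' peak score, a ratio to total input (column 7, the fold enrichment) and the −log10 p-value and q-value. Although the methods give a q-value limit of 0.05, between 163 and 427 deposited peaks per list were above it.

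Overlapping or touching peaks of the 4 lists were joined (at least 1 bp or adjacent), and regions on autosomes, X and Y were kept. Presence in a list was an overlapping peak, and its height the highest column 7. Mid-points were classed with GENCODE 44 on GRCh37 (lifted coordinates), with a promoter as the 1 kb before a TSS. Motif letters were searched on both strands of whole regions and of 300 bp around each mid-point. Intervals are 95% Wilson intervals and cover counting error only. No p-value was computed, since each label has 1 library. The work ran in Python 3.11.15 with pandas 2.3.3 and matplotlib 3.10.9, genome sequence was read with samtools 1.23.1 and pysam 0.24.0, and merging and motif search were tested on simulated regions.

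The members and gene lists were chosen with earlier results of these data known. Named were the 4 members with every region; from the pathway lists, genes with a region within 1 kb of the TSS and no NS DMSO peak, at most 5 per list by highest column 7; and, for each member, the 3 protein-coding genes nearest in summed column 7. Alternatives covered the window, the joining rule, the peak threshold, the list length and the summary of column 7. Reads and read counts were not analysed here.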

Additional observations from a re-analysis of the deposited data

How the results depend on the processing

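Of 79 values recomputed for 12 results, 69 stayed within their interval or margin. A share was judged by its Wilson interval, which is wide for 22 regions, and a count by a margin of 1.5 times. Many of the 69 did not change at all, so the tally says little about how firm a result is. No value had a replicate, so a library cannot be separated from its label, and read depth was unknown. Keeping the highest-scoring 50% of each list left 13 regions in place of 22, of which 5 in place of 12 were at CREB5, while the 4 at ATF3 were kept. The median ratio to the NS DMSO list over regions in all lists fell below 1 for the SW DMSO list with a window of 100 kb (0.978), with the highest-scoring 50% of each list (0.948) and without the SW rottlerin list (0.986), and for the NS rottlerin list with the 100 kb window (0.994) and without the SW rottlerin list (0.994). Leaving out the SW rottlerin list, the longest, was chosen after seeing the data. It left 18 regions, of which 38.9% had no NS DMSO peak and 33.3% a peak in every list. When every list was shortened to the length of the shortest by score, 45% of 20 regions had no NS DMSO peak. CREB1 had 4 regions with the 100 kb window, and 1 with either the highest-scoring 50% or without the SW rottlerin list. No paired analysis was possible because each label has 1 library.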

Other observations

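Other sites known to be bound in activated T cells were searched as letters on both strands of 300 bp around the mid-points of the 22 regions, which includes flanking sequence where a region is narrower. The core of the NFAT site, GGAAA, was found in 17 of 22 windows (77.3%) against 71% over all merged regions, including 4 of 4 at CREM and 9 of 12 at CREB5. The ETS letters CCGGAA or CAGGAA, which can overlap GGAAA, were found in 10 of 22 (45.5%) against 44.8%, and 8 of these were at CREB5. The RUNX letters TGTGGT were found in 6 of 22 against 32.8%, the GATA letters AGATAA or TGATAA in 6 of 22 against 31.5%, and the bHLH letters CACCTG in 5 of 22 against 21.4%.

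In RefSeq promoter sequences (GRCh38.p14, a 300-base window around each start), the full CRE, its core TGACG and the AP1 site were found in 0 of the 4 genes, against 1.85%, 24.6% and 7.71% of 35116 promoters. These windows hold 1 start per gene and no internal starts.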
